A study of Mus musculus with 8 samples.

Results

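Uhrf1, the DNA methyltransferase genes Dnmt1, Dnmt3a and Dnmt3b, the Tet genes Tet1, Tet2 and Tet3, and the partners Uhrf2, Hells and Usp7 were examined in mouse vascular smooth muscle cells with and without RNA interference against Uhrf1. These 10 genes were taken by symbol, and every probe that the platform annotation assigns to one of them was used. That gave 16 probes for 8 genes, of 25669 readable probes and 16582 genes in all, while Tet1 and Tet2 had no probe in that annotation and were not analysed here.

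The shUHRF1 group held primary smooth muscle cells transduced with lentivirus that expressed short hairpin RNA specific for Uhrf1, and the shSCR group held the same kind of cells given scrambled hairpin RNA. Cells of both groups came from male C57Bl6/J mice of 8 weeks, carried an integrated lentivirus, were selected with puromycin for 2 days and gave total RNA after 5 days, per the labels. Each group had 2 RNA samples, each hybridised to 2 Illumina bead arrays, 8 arrays in all. The labels state neither whether the RNA samples came from separate animals or cultures nor whether both shUHRF1 samples received the same hairpin, so the p-values given here speak of the scatter among these 4 samples alone, and that scatter may be technical.

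Cytosine methylation at CpG sites is copied at each cell division. Uhrf1 binds the hemimethylated DNA behind the replication fork, ubiquitylates histone H3 and so brings in Dnmt1, which methylates the new strand. Uhrf2 is its closest relative and does not replace it in this role, Usp7 is a deubiquitylase that binds both Uhrf1 and Dnmt1, and Hells is a nucleosome remodeller needed for full methylation of repeats. Dnmt3a and Dnmt3b place methyl groups on unmethylated sites, and the Tet dioxygenases oxidise methylcytosine, the opening step of active demethylation. Uhrf1, Dnmt1 and Hells are made mainly in dividing cells, where E2F factors drive genes of S phase.

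The promoter windows of Uhrf1, Dnmt1, Uhrf2 and Hells, from RefSeq on GRCm38.p6, are shown because Uhrf1 is the gene that was targeted, Dnmt1 and Uhrf2 are the detected partners with the next lowest signals relative to shSCR, and Hells is a partner that was not detected. Each window runs from 250 bases before to 50 bases after an annotated start, on the strand of the gene. Capitals mark matches on either strand to the E2F core, searched as TTTCCCGC, TTTGGCGC, TTTCGCGC and TTTGCCGC. The Uhrf1 window lies at chr17:56304063-56304362 on the plus strand, the Dnmt1 window at chr9:20952574-20952873 on the minus strand, the Uhrf2 window at chr19:30030263-30030562 on the plus strand and the Hells window at chr19:38930740-38931039 on the plus strand.
Uhrf1: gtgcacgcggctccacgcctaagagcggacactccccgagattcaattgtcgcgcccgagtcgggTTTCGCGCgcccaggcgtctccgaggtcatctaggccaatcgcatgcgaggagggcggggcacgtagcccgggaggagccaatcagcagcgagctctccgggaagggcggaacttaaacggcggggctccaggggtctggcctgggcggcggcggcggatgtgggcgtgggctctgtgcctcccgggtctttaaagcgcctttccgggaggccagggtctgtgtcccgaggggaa
Dnmt1: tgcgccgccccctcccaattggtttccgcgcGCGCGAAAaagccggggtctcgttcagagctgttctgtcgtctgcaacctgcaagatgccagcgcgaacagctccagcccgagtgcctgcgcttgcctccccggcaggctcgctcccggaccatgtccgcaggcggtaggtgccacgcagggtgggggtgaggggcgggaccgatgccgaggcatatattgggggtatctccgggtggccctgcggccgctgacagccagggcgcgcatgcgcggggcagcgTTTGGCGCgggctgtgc
Uhrf2: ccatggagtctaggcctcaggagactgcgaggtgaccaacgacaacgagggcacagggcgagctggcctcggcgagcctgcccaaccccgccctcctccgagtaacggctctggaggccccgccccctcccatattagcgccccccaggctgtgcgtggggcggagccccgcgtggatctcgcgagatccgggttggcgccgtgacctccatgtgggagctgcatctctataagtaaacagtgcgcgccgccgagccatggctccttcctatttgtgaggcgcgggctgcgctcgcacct
Hells: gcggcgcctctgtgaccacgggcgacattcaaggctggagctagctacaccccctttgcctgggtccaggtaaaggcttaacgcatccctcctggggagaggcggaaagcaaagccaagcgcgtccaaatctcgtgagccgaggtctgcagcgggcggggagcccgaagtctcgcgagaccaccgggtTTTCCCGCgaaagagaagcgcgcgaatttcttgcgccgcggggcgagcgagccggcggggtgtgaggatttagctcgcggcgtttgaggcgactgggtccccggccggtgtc

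All 10 genes had at least 1 RefSeq window, 15 windows in all. A match stood in 1 window each of Uhrf1, Dnmt1 and Hells, and in no window of the other genes, where these letters are merely absent from the stretches searched. Over all 32851 RefSeq windows, 2.26% held a match. Counted from the annotated start, the match in the Uhrf1 window began at position -185 and the one in the Hells window at -62, while the Dnmt1 window had matches at -219 and 33. Uhrf1 has 2 windows and Dnmt1 has 3, and the one with a match was printed for each. Dnmt3a and Tet3 were not detected either, but their windows, which held no match, were not printed. The printed windows held 33 CpG sites for Uhrf1, 33 for Dnmt1, 28 for Uhrf2 and 34 for Hells, against a median of 7 over all windows. Each E2F core searched holds a CpG, and most of all windows have fewer CpG sites than these. The 2.26% is therefore not a share over like windows. The windows not printed held 12 for Uhrf1 and 12 and 2 for Dnmt1.

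Uhrf1, Uhrf2, Dnmt1, Dnmt3b and Usp7 could be measured on these arrays. Of the 16 probes, 8 had a detection p of 0 on all 8 arrays, and these covered the 5 genes. The other 8 were not detected on any array. Their deposited signals lay between 89.5 and 119 and their detection p was never below 0.0551, where a probe was called detected below 0.05. Dnmt3a, Hells and Tet3 were therefore not measurable here. Signals are comparable between samples for 1 probe and not between probes.

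**Figure D1:**
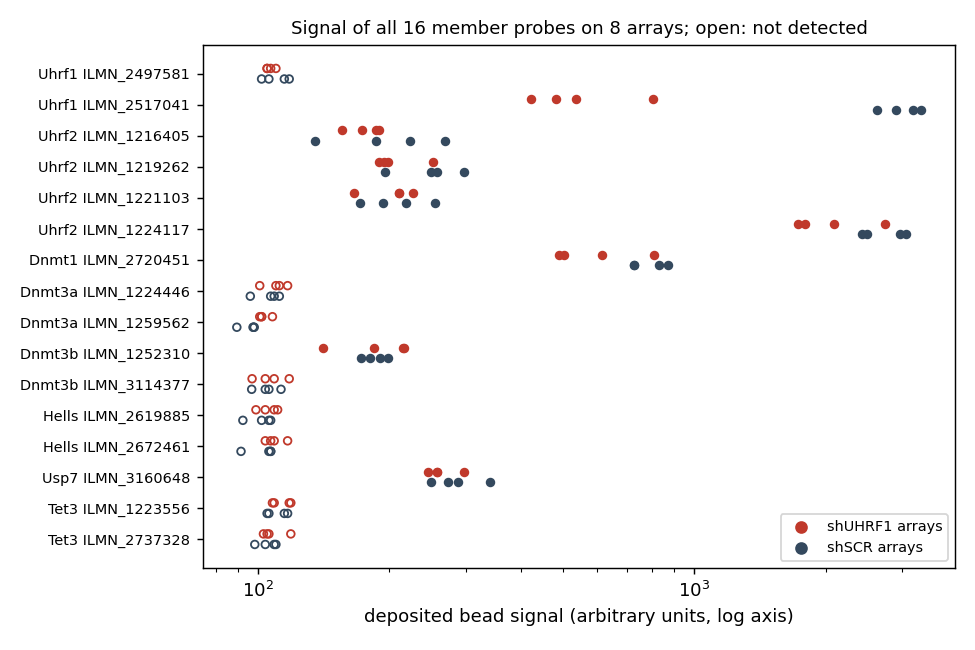
Deposited bead signal (arbitrary units, log axis) of the 16 probes, a row for each probe, on the 4 shUHRF1 arrays (red, upper points) and the 4 shSCR arrays (dark blue, lower points). Filled points are probes detected on all arrays, and the open points of the 8 undetected probes all lie between 89.5 and 119. The Uhrf1 probe ILMN_2517041 is the one with the widest gap between the groups.

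Uhrf1, the target of the hairpin and so a check of the labels, was lower on every array of the shUHRF1 cells. Its detected probe, ILMN_2517041, had deposited signals of 803 and 483 on the arrays of shUHRF1 sample 1 and 423 and 536 on those of sample 2, against 2893 and 3314 for shSCR sample 1 and 2623 and 3174 for shSCR sample 2. After normalization the log2 signal was 9.06 and 8.48 in the shUHRF1 samples, against 11.52 and 11.54 in the shSCR samples. The shSCR samples lay almost on top of each other, and the shUHRF1 samples lay 0.58 apart with no overlap between the groups. The difference, shUHRF1 minus shSCR, was -2.75 on the log2 scale (SE 0.23, 95% interval -3.31 to -2.20, n = 2 RNA samples per group), a 6.74-fold lower signal that left 14.8% of the shSCR level, with an interval of 10.1% to 21.8%. Of 7502 genes tested, Uhrf1 had the lowest difference. In bulk RNA, fewer cells that make a transcript and less of the transcript per cell cannot be told apart.

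The Uhrf1 difference did not pass the threshold of 0.05 with the arrays of each RNA sample averaged (limma, adjusted p = 0.167 over 10880 probes), and 0% of all probes tested did. With the 8 arrays kept apart and a random block for RNA sample, Uhrf1 passed (limma, adjusted p = 0.00182), as 1 of 3 probes that did, or 0.0276% of those tested. Over all probes, the differences between first and second arrays correlated between RNA samples at r = 0.122 to 0.545, and adding the array number as a replicate block gave adjusted p = 0.0115 for Uhrf1 (limma). The random-block fit counts residuals over 8 arrays from 4 RNA samples, and its p-values may be too small. A second Uhrf1 probe, ILMN_2497581, was not detected on any array, with signals of 105 to 110 on the shUHRF1 arrays and 102 to 118 on the shSCR arrays.

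Uhrf2, the paralogue, was read by 4 detected probes, and all had a negative difference. ILMN_1224117 stood at 11.05 and 10.79 (normalized log2 signal) in shUHRF1 samples 1 and 2, against 11.49 and 11.30 in shSCR samples 1 and 2. Both shUHRF1 samples lay below both shSCR samples, but 1 shUHRF1 array, the first of sample 1, had 11.34, level with the first and above the second array of shSCR sample 2, at 11.34 and 11.27. Its difference was -0.48 (SE 0.18, 95% interval -0.92 to -0.03, limma adjusted p = 0.328), or 71.8% of the shSCR level.

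ILMN_1219262 for Uhrf2 stood at 7.05 and 6.50 in shUHRF1 samples 1 and 2, against 7.47 and 7.28 in shSCR samples 1 and 2, a difference of -0.60 (SE 0.23, 95% interval -1.15 to -0.04, adjusted p = 0.328). Without shUHRF1 sample 2 it was -0.32. Sample 2 was the lower shUHRF1 sample on both this probe and ILMN_1224117, as it was for Uhrf1 itself. On ILMN_1224117 this order came from the first array of shUHRF1 sample 1, at 11.34. The second array of sample 1, at 10.75, was below both arrays of sample 2, at 10.79 and 10.78. ILMN_1221103 had the opposite order. The remaining Uhrf2 probes were less clear. ILMN_1216405 had 6.34 and 6.30 in the shUHRF1 samples, against 7.21 and 6.37 in the shSCR samples, a difference of -0.47 (SE 0.29, 95% interval -1.16 to 0.23) that rested on shSCR sample 1, since it was -0.05 without that sample. ILMN_1221103 had 6.57 and 6.84 in the shUHRF1 samples, against 7.12 and 6.80 in the shSCR samples, with a difference of -0.25 (SE 0.20, 95% interval -0.74 to 0.23) and groups that overlapped. Leaving out shUHRF1 sample 1 gave -0.12 and leaving out shSCR sample 1 gave -0.09. The Uhrf2 probes also depended on the array. From the first arrays alone the differences of ILMN_1224117, ILMN_1219262, ILMN_1216405 and ILMN_1221103 were -0.40, -0.35, -0.16 and -0.08, and from the second arrays alone -0.56, -0.84, -0.77 and -0.42.

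Dnmt1, the maintenance methyltransferase, was lower in both shUHRF1 samples, and more so in sample 1. Its 1 probe, ILMN_2720451, had normalized log2 signals of 8.61 and 8.76 on the arrays of shUHRF1 sample 1 and 9.05 and 9.29 on those of sample 2, against 9.58 and 9.46 for shSCR sample 1 and 9.53 and 9.40 for shSCR sample 2. The groups overlapped on no array after normalization, while the deposited signals were 489 to 808 on the shUHRF1 arrays and 728 to 869 on the shSCR arrays and did overlap. The difference was -0.56 (SE 0.21, 95% interval -1.08 to -0.05, limma adjusted p = 0.321), or 67.7% of the shSCR level. It was -0.81 in shUHRF1 sample 1 and -0.32 in sample 2 (the values when the other sample is left out), each set against the shSCR mean, the opposite order to Uhrf1, whose differences were -2.46 and -3.04.

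Usp7, the deubiquitylase, gave the most even sample means among the partners. Its probe ILMN_3160648 stood at 7.38 and 7.34 in shUHRF1 samples 1 and 2, against 7.69 and 7.71 in shSCR samples 1 and 2, and no shUHRF1 array reached a shSCR array. Before normalization the arrays overlapped, with deposited signals of 245 to 296 in shUHRF1 cells and 249 to 340 in shSCR cells. The normalized difference was -0.34 (SE 0.16, 95% interval -0.72 to 0.05, limma adjusted p = 0.377), or 79.2% of the shSCR level. Sample means of 1 group differed by 0.04 or less for this gene, so the gap between the groups was wide against that spread. Single arrays spread more, from 7.26 to 7.48 in shUHRF1 and from 7.55 to 7.84 in shSCR. In addition, limma's error borrows from all probes, and the interval spans 0.

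Of the de novo enzymes, Dnmt3b was detected with ILMN_1252310, and its interval spans 0. It had 6.32 and 6.60 in shUHRF1 samples 1 and 2, against 6.66 and 6.69 in shSCR samples 1 and 2, a difference of -0.21 (SE 0.18, 95% interval -0.65 to 0.22, limma adjusted p = 0.581). It was -0.07 without shUHRF1 sample 1 and -0.36 without shUHRF1 sample 2. The low value of shUHRF1 sample 1 came from its second array, at 5.80, while its first array had 6.84, above 3 of the 4 shSCR arrays. A second Dnmt3b probe, ILMN_3114377, annotated to another transcript of the gene, was not detected, with signals of 97.0 to 118 on the shUHRF1 arrays and 96.8 to 113 on the shSCR arrays.

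**Figure D2:**
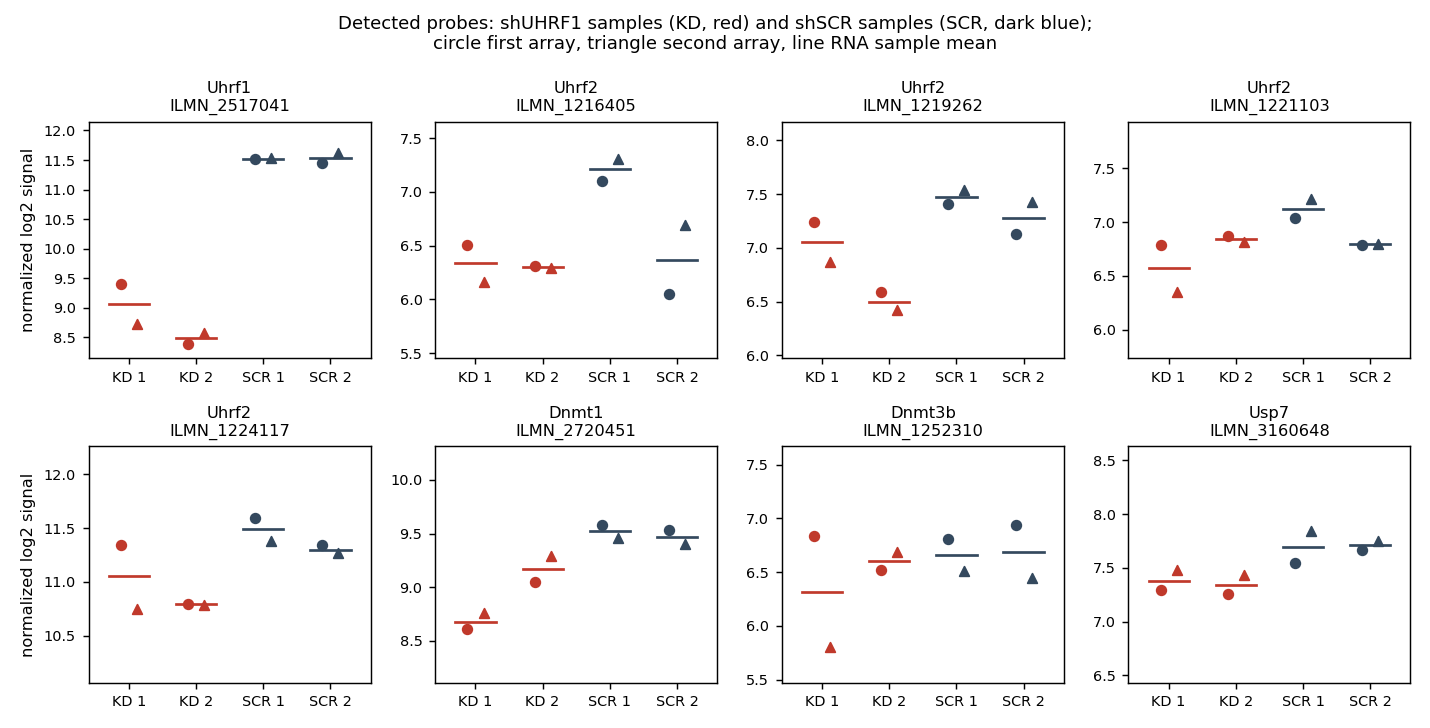
Normalized log2 signal of the 8 detected probes, a panel each with its own range, in shUHRF1 samples 1 and 2 (KD, red) and shSCR samples 1 and 2 (SCR, dark blue). Circles are first arrays, triangles second arrays and lines the mean of an RNA sample. After normalization the arrays of the groups do not overlap for Uhrf1, Dnmt1 and Usp7, and the shSCR samples themselves differ for Uhrf2 probe ILMN_1216405.

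Dnmt3a, the other de novo methyltransferase, was not detected by either probe. ILMN_1224446 had signals of 101 to 117 on the shUHRF1 arrays and 96.1 to 112 on the shSCR arrays, and ILMN_1259562 had 101 to 108 on the shUHRF1 arrays and 89.5 to 98.1 on the shSCR arrays. Hells, the remodeller, was likewise not detected, with 99.0 to 111 on the shUHRF1 arrays and 92.4 to 107 on the shSCR arrays for ILMN_2619885, and with 104 to 117 in shUHRF1 and 91.5 to 107 in shSCR for ILMN_2672461. Tet3, the dioxygenase gene with probes here, had 108 to 119 on the shUHRF1 arrays and 105 to 117 on the shSCR arrays for ILMN_1223556, the undetected probe that came nearest to detection, and 103 to 119 in shUHRF1 and 98.4 to 110 in shSCR for ILMN_2737328. The median deposited signal of all probes was 103.4 to 123.3 per array, so these probes read near that median. With no detection filter, the 8 undetected probes had differences between -0.23 for Uhrf1 ILMN_2497581 (SE 0.12) and 0.08 for Dnmt3a ILMN_1259562 (SE 0.08), values that describe background signal.

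Read together, all 8 detected probes had a negative difference, where 52.7% of all tested probes did, and their median was -0.48 with Uhrf1 and -0.47 over the other 7, against -0.02 over all tested probes. Since 4 of the 8 read 1 gene, Uhrf2, these are not independent values. Both shUHRF1 samples lay below both shSCR samples for 7 of the 8, against 27.6% of all tested probes. All shUHRF1 arrays were below all shSCR arrays for 3 of the 8 (Uhrf1, Dnmt1 and Usp7), against 8.58%. At an unadjusted p under 0.05, 4 of the 8 were lower (Uhrf1, Dnmt1 and 2 Uhrf2 probes), against 6.84% of all tested probes. Uhrf1, the target of the hairpin, is in each of these counts and says nothing there of the partners. The 7 probes other than Uhrf1 passed the adjusted threshold neither with averaged arrays nor with the random block, where their adjusted p was 0.135 to 0.678 by limma.

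**Figure D3:**
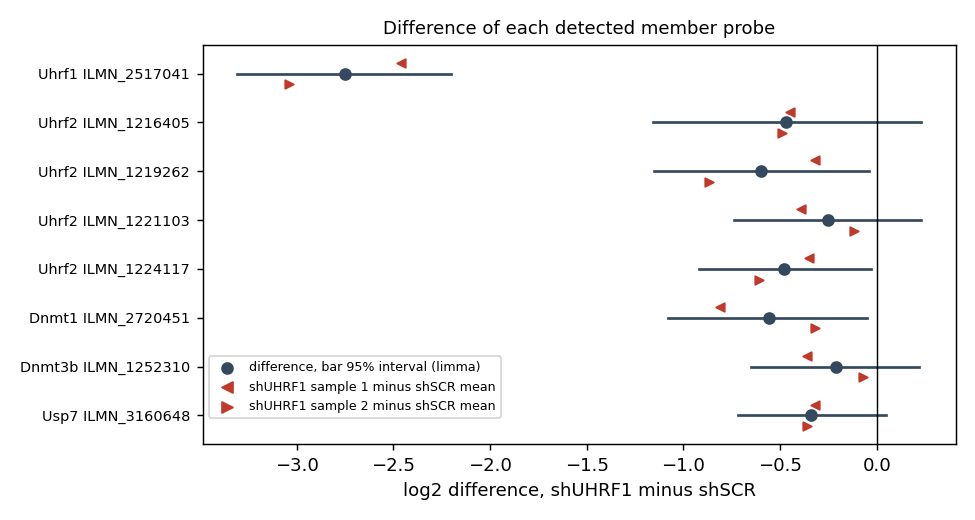
Log2 difference, shUHRF1 minus shSCR, of the 8 detected probes (dark blue points) with the 95% interval from limma (bars), and the difference of shUHRF1 sample 1 (left-pointing) and sample 2 (right-pointing) from the shSCR mean. Uhrf1 at -2.75 stands apart from the others, which lie between -0.60 and -0.21.

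The genes whose pattern was nearest to that of Uhrf1 were still far from it. Nearness was the root mean square distance over the 4 RNA samples between log2 signals centred on the shSCR mean, over 7502 genes. The 5 nearest were Chst1, a carbohydrate sulfotransferase (distance 1.12, difference -1.18, SE 0.29), the chemokine gene Ccl9 (1.16, -1.25, SE 0.28), the histone genes H3c1 (1.17, -1.22, SE 0.25) and H3c6 (1.25, -1.14, SE 0.30), and the formin gene Diaph3 (1.23, -1.10, SE 0.22). Histone H3 genes are near-identical copies, so their probes may not tell them apart. Each of the 5 had an adjusted p of 0.287 by limma. No gene matched the depth of the Uhrf1 difference, and Chst1 shared its order, with shUHRF1 sample 2 the lower at 7.92 and sample 1 at 8.69.

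Dnmt1, by contrast, had close neighbours. The nearest were Actl6a, a subunit of chromatin remodelling complexes (distance 0.016, difference -0.55, SE 0.21), Rttn, a gene of centriole assembly (0.0313, -0.54, SE 0.20), and E2f3, an activating E2F factor (0.0323, -0.56, SE 0.22). Actl6a had 7.79 and 8.30 in shUHRF1 samples 1 and 2, against 8.61 and 8.59 in the shSCR samples, the same order as Dnmt1.

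Genes of the cell cycle showed the same order of the shUHRF1 samples as Dnmt1. Of 31 S phase genes listed, 26 were tested, among them Prim1, which passed the filter through the shSCR arrays alone. The other 25 were detected on all 8 arrays, and all 25 had a negative difference, with a median of -0.58. Of 6940 genes detected on all 8 arrays, 3618 had a negative difference, with a median of -0.02. The lowest were Rrm2, a subunit of ribonucleotide reductase, at -0.89 (SE 0.32), Tyms, which makes thymidylate, at -0.79 (SE 0.21), and Lig1, the ligase of the lagging strand, at -0.79 (SE 0.22). Set against the shSCR mean, shUHRF1 sample 1 had an S phase median of -0.77 over the 25 genes and sample 2 one of -0.24, beside -0.81 and -0.32 for Dnmt1. The values were lower in sample 1 for 23 of the 25, against 3385 of the 6940 genes detected on all 8 arrays. Rrm2 was an exception, at -0.51 in sample 1 and -1.27 in sample 2. The summed normalized signal of the 25 was 18180 and 25801 in the shUHRF1 samples, against 31019 to 31577 in the shSCR samples. All 9 tested genes of G2 and mitosis, each detected on all 8 arrays, were negative as well, with a median of -1.24 in sample 1 and -0.35 in sample 2, and the mitotic regulators Aurka, Cdc25c and Cdc20 were lowest, Cdc25c at -0.97 (SE 0.31) and Aurka at -1.51 in sample 1 and -0.48 in sample 2. In neither list did any gene pass limma's adjusted threshold, and an unadjusted p under 0.05 was reached by 11 S phase genes and 5 genes of G2 and mitosis, against 457 of the 6940 in that direction. The part of cell division in the Dnmt1 value was not tested.

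**Figure D4:**
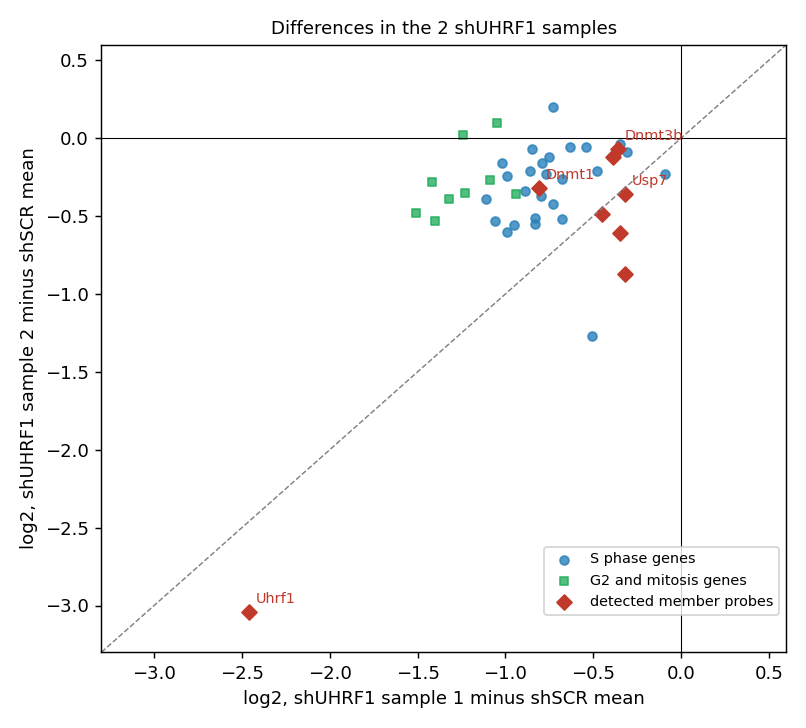
Log2 difference from the shSCR mean in shUHRF1 sample 1 (horizontal) and shUHRF1 sample 2 (vertical) for 26 S phase genes (blue circles), 9 genes of G2 and mitosis (green squares) and the 8 detected probes (red diamonds; the 4 unlabelled ones are Uhrf2). Points above the dashed line of equality are lower in sample 1. Dnmt1 lies there among the S phase genes, while Uhrf1, Usp7 and 3 Uhrf2 probes lie below the line. Usp7 and the Uhrf2 probe ILMN_1216405 are so close to the line that their samples hardly differ.

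Other genes listed around the methylation cycle were counted from lists that leave out the 10 genes above. They were counted over genes detected on all 8 arrays, a limit added after the data were seen. Of 10 such partners of maintenance methylation, 9 had a negative difference, with a median of -0.18, and 1, Lig1, had an unadjusted p under 0.05. Over all 6935 genes counted in that way, 3613 had a negative difference, with a median of -0.02. An unadjusted p under 0.05 in that direction was reached by 454 of them. Lig1 and Pcna belong to the S phase list too, and Pcna, the clamp that holds both Dnmt1 and Uhrf1 at the fork, stood at -0.19 (SE 0.20). Cdca7, the partner of Hells, had -0.28 (SE 0.23), and Ehmt1, a histone methyltransferase gene, was the 1 on the other side at 0.11 (SE 0.21). The 3 such genes listed beside the de novo enzymes, Trdmt1, Morc3 and Smchd1, had negative differences, with a median of -0.26. Being listed does not make each of them an enzyme of DNA methylation. Of the 3, 0 had an unadjusted p under 0.05.

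Among genes listed as readers of methylated DNA or around active demethylation, differences lay on both sides of 0. Being listed does not make each of them a reader of methylated DNA or an enzyme of demethylation. Of all 6935 genes counted in the same way, 3613 were negative and 608 had every shUHRF1 array below every shSCR array. The 5 genes listed as readers were Mbd1, Mbd3, Mbd4, Zbtb33 and Cxxc1. Of these 4 were negative, with a median of -0.10, and Mbd4, a glycosylase that binds methylated CpG, was lowest at -0.46 (SE 0.24). Of 12 genes listed around demethylation 8 were negative, with a median of -0.13. Tdg, the glycosylase that removes the products of Tet enzymes, had -0.36 (SE 0.17) with no overlap of the arrays, and Gadd45a, a stress-induced gene, had 0.68 (SE 0.31), at 1.04 in shUHRF1 sample 1 and 0.33 in sample 2. In both lists 0 genes had an unadjusted p under 0.05.

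Of 7 tested genes listed around the supply and use of the methyl donor, 5 had a negative difference, with a median of -0.58. Of all 6940 genes detected on all 8 arrays, 3618 had a negative difference. Shmt1, the cytosolic serine hydroxymethyltransferase, had -0.89 (SE 0.18), Ahcyl1, a relative of the hydrolase of adenosylhomocysteine, had -0.60 (SE 0.16), and Shmt2, the mitochondrial counterpart of Shmt1, had -0.60 (SE 0.25), each with no overlap of the arrays. Ahcy, the hydrolase itself, which clears the inhibitor left by methyltransferases, had -0.58 (SE 0.25), at -0.27 in sample 1 and -0.89 in sample 2. Mat2b, a regulatory subunit of the synthase of the donor, ran the other way at 0.42 (SE 0.16), again with no overlap. At an unadjusted p under 0.05, 2 of the 7 were lower and 1 was higher, against 457 and 510 of the 6940. Arrays without overlap were found for 611 of the 6940 in the lower direction and for 560 in the higher one. Of the 7, 0 passed limma's adjusted threshold, with Shmt1 at adjusted p = 0.287.

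As a check of the cell type, 6 of 11 smooth muscle markers with a probe were detected, among them Acta2, Tagln and Smtn, while Myh11, Cnn1, Des, Lmod1 and Myocd did not pass the detection filter. Their summed normalized signal was 23787 and 27051 in the shUHRF1 samples, against 13397 and 23453 in the shSCR samples, most of it from Acta2, whose log2 signals were 14.56 and 14.35 in shUHRF1, against 13.44 and 14.33 in shSCR. The list's median difference was 0.19, between Cald1 at -0.23 (SE 0.24) and Tagln, an actin-binding protein of smooth muscle, at 1.27 (SE 0.20, limma adjusted p = 0.287), with all shUHRF1 arrays above all shSCR arrays for Tagln. The endothelial markers Pecam1, Cdh5 and Vwf and the leukocyte marker Ptprc did not pass it either. Of 8 endothelial markers, Egfl7 and Kdr were tested. Kdr passed the filter through the shSCR arrays alone, and Egfl7, detected on all 8 arrays, had -0.52 (SE 0.17). The leukocyte marker detected on all 8 arrays, Cd14, had -0.26. Of 6 fibroblast markers with a probe, 4 were tested, and 2 of them were detected on all 8 arrays. The sum of these 2 was 280 and 387 in the shUHRF1 samples, against 176 and 266 in the shSCR samples. Scara5 passed the filter through the shUHRF1 arrays alone and Dpt through the shSCR arrays alone. Of the others, Pi16 had 0.86 in shUHRF1 sample 1 and 0.91 in sample 2, and Pdgfra had -0.55 and 0.76, each against the shSCR mean. The part of these cell types in the values above was not tested.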

How the data were processed

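RNA of 4 samples was measured on 8 Illumina arrays. The deposited intensity is a mean bead signal per probe and array, not normalized between arrays, and comes with a detection p-value per the file headers. GenomeStudio 2011.1 and lumi are named in the submitters' processing notes. Background subtraction by the authors is not stated. The authors' processed values, log2-like with no stated base or transform, had a median of 7.86 in all columns and served as an alternative, and their deviations correlated at r = 0.951 to 0.964 with the normalized signals over 5550 probes brighter on average than 300.

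Of 25671 probes, 2 with unreadable entries were left out. Of the rest, 23950 carried 1 gene symbol, 1719 none and 0 several. RefSeq names (GRCm38.p6) matched 23934. Signals were normexp-corrected from detection p-values (offset 16), quantile-normalized and log2-transformed (limma 3.58.1, R 4.3.3), and 45.1% to 48.2% of probes were detected per array. Probes with a detection p under 0.05 on all 4 arrays of 1 group were tested, 10880 in all. Both arrays of each RNA sample were averaged before limma was fitted to 2 shUHRF1 against 2 shSCR samples, with Benjamini-Hochberg adjustment over all tested probes. For gene lists, the probe with the highest mean stood for a gene.

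Numbers in the titles are shared between groups, while those in the sample descriptions are not. RNA samples with the same title number deviated from their group means with r = -0.15, so these numbers were not taken as pairs. First-minus-second array differences correlated between RNA samples at r = 0.122 to 0.545. The fit was tested on simulated data. The genes named were all 10 genes above, listed genes among the 3 highest or 3 lowest of their list, and the nearest genes by distance, with others named singly after their values were seen. The genes and lists were chosen with earlier results of these data known.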

Additional observations from a re-analysis of the deposited data

How the results depend on the processing

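All 8 detected probes kept a negative difference under each of 17 alternatives, 136 values in all. The alternatives that changed only the probe filter, a block or the array weights left each difference as it was. They did not test its sign. The 7 probes other than Uhrf1 passed the adjusted threshold in none of the alternatives that kept all RNA samples. Uhrf1 ranged from -3.04 to -2.25, with -2.25 in the authors' processed values, and without 1 RNA sample at a time from -3.04 to -2.46. Its call depended on the error model and on the arrays used. It passed with the RNA sample as a random block (-2.75, adjusted p = 0.00182), with the array number as a replicate block added to that fit (-2.75, 0.0115), with the RNA sample number as a replicate block (-2.75, 0.0416) and from the second arrays alone (-2.92, 0.0438), but not from the first arrays alone (-2.59, 0.158). The fits in which it passed called 3, 2, 1 and 1 probes, where the averaged arrays without a block called 0 by limma, with 1576 at an unadjusted p under 0.05. With the RNA sample numbers crossed between the groups as a replicate block, 2 probes passed, Uhrf1 among them (-2.75). That block was chosen after seeing the data, since the deviations of same-numbered samples correlated negatively, though only weakly (r = -0.15).

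Dnmt1 ranged from -0.81 to -0.32 and Usp7 from -0.36 to -0.13. Uhrf2 probes read weaker in the authors' processed values, at -0.45, -0.19, -0.13 and -0.07, and Dnmt3b was -0.05 there. The cause was not tested. The lone sample left when an RNA sample was dropped is assumed to vary like the other group. The precision is limited by 2 RNA samples per group.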
